A study of Saccharomyces cerevisiae with 18 samples.

Results

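The genes described here are the 8 budding yeast genes that make, degrade and directly control glycogen in the list chosen for this account: GLG1 (YKR058W), GLG2 (YJL137C), GSY1 (YFR015C), GSY2 (YLR258W), GLC3 (YEL011W), GPH1 (YPR160W), GDB1 (YPR184W) and GAC1 (YOR178C). They were found by gene symbol in the array annotation, which gave 7 of the 8, and GDB1 was found by its systematic name, since the annotation lists it without a symbol. All 8 passed the requirement of a value in each of the 18 groups, as did 5828 of the 6218 genes present on all arrays. Matching used no measured value, but the list was chosen with earlier results of these data known.

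Purified spores of the diploid Saccharomyces cerevisiae strain Y55 were placed in pre-warmed YPD (rich medium made of peptone, yeast extract and glucose) or in 2% glucose alone, and RNA was taken at 0 min and at 8 later times: 4, 8 and 16 min, then 32, 48 and 64 min, then 96 and 128 min. Each RNA was labelled with Cy5 and hybridised to a spotted 2-colour array together with Cy3-labelled RNA of dormant spores, so every value is a log2 ratio of germinating over dormant spores, and a ratio of -1 is a level 2-fold below that of dormant spores. There were 27 YPD arrays (3 at each time) and 26 glucose arrays (3 at each time, 2 at 0 min), and no array with the dyes exchanged. The labels mention both biological and scan replicates, so p-values measure the spread between arrays, although arrays of a group shared at most 29.6% of their unusable spots and looked like separate slides.

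Glycogen is a branched glucose polymer that yeast builds up when growth slows and during sporulation, and that spores draw on together with the disaccharide trehalose. Synthesis starts on glycogenin, a protein that attaches the first glucose residues to itself, is continued by glycogen synthase with UDP-glucose as the donor, and is completed by a branching enzyme. Glycogen phosphorylase shortens the outer chains and the debranching enzyme removes the branch points, and phosphorylation switches synthase off and phosphorylase on.

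Transcripts of all 8 genes were called lower than at 0 min in YPD at 32 min and from 64 min on, and in glucose at 64 and 96 min. At 32 min in YPD the fall of 7 of them ranged from 1.28 on the log2 scale for GLG2 to 2.31 for GLC3, while GDB1 had a single usable array, not above background in Cy5. At 64 min GLC3, the branching enzyme, was at a ratio of -3.15 ± 0.36 in YPD and -2.38 ± 0.59 in glucose (SD, n = 3 each). Genes of synthesis and genes of breakdown fell together, and none of the 8 was called higher than at 0 min at any time in either medium. RNA was taken from whole spore populations and equal amounts of labelled RNA were compared, so the ratios compare shares of the RNA. They do not give the amount per spore. Less transcript per spore, fewer spores that hold it and more of other RNA cannot be told apart.

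**Figure D1:**
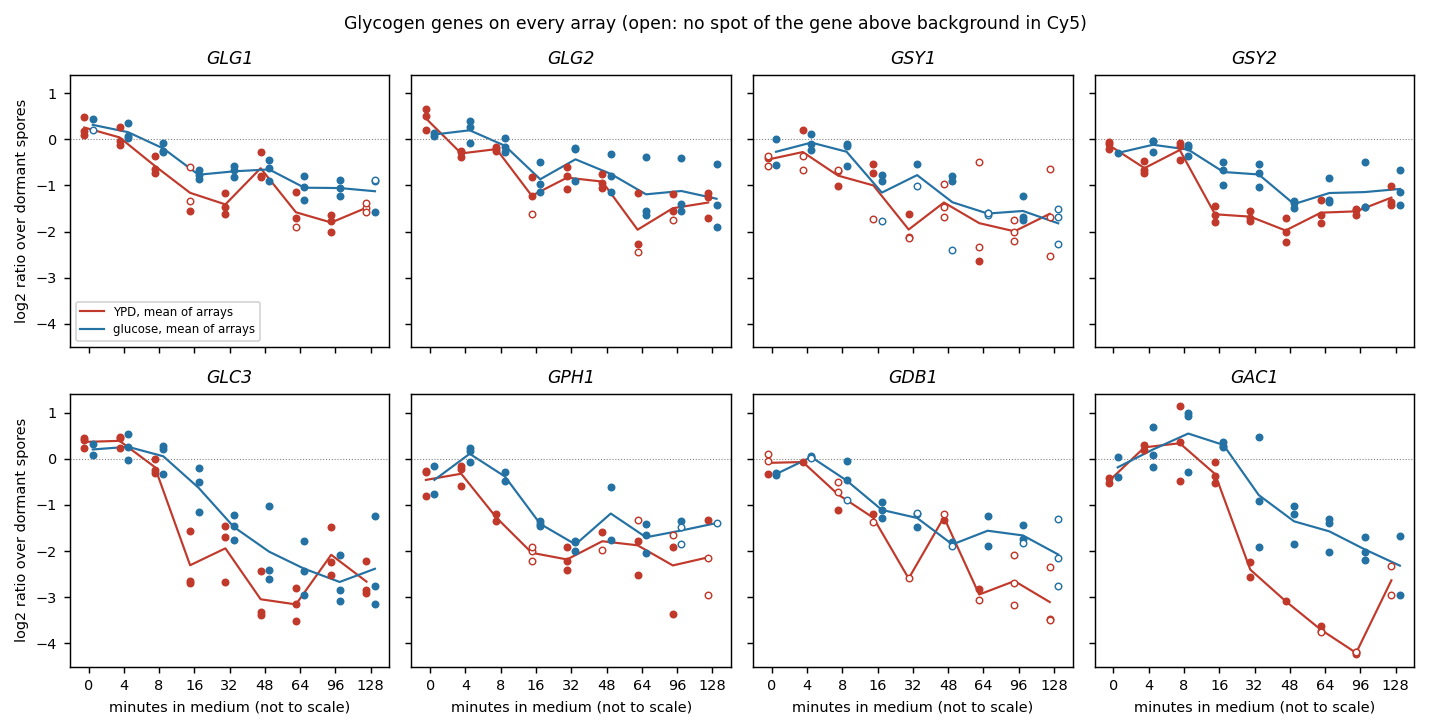
Log2 ratio of germinating (Cy5) over dormant spores (Cy3) for each gene on each array (points) against minutes in the medium, with YPD in red, glucose in blue and lines through the group means. All 8 genes lie below 0 at 128 min in both media, and GAC1 in YPD reaches the lowest group mean, -4.20 at 96 min.

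The calls come from limma's moderated test over all 5828 genes, with Benjamini-Hochberg adjusted p under 0.05 called. In YPD, 0 of the 8 genes were called lower at 4 min than at 0 min (6.18% of all genes), with 2 below an unadjusted p of 0.05, and 1 was at 8 min (5.32% of all genes). Then 6 of 8 were called at 16 min (25.9%), 8 of 8 at 32 min (26.6%) and 7 of 8 at 48 min (26.3%). GSY1 was the exception at 48 min, with no array above background in Cy5. From 64 min on all 8 were called, against 28.4% of all genes at 64 min, 25.9% of them at 96 min and 25.7% of them at 128 min. The median change of the 8 genes was -1.45 at 16 min and -2.12 at 64 min on the log2 scale, and that of all genes lay between -0.06 and 0.01 in every comparison with 0 min. The count higher was 0 at every time, at the adjusted and at the unadjusted threshold. Of all genes 7.74% and 10.8% were called higher at 4 and 8 min, 22.7% and 22.2% at 16 and 32 min, 19.4% and 22.8% at 48 and 64 min, and 20.2% and 18.4% at 96 and 128 min.

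In glucose the calls came later. None of the 8 genes was called lower at 4 min (0% of all genes; 0 below an unadjusted p of 0.05) or at 8 min (0.463%; 1 below it), and 1 was at 16 min (6.88%). Then 4 of 8 were called at 32 min (9.06%), 4 of 8 at 48 min (10.4%), 8 of 8 at 64 min (12.9%), 8 of 8 at 96 min (13.8%) and 7 of 8 at 128 min (14.2%), with GPH1 the gene not called at 128 min, where a single array gave a value. The median change was -0.78 at 32 min and -1.49 at 128 min, and 0 genes of the list were called higher at any time, also at the unadjusted threshold. Of all genes 0% and 2.4% were called higher at 4 and 8 min, 9.13% and 8.05% at 16 and 32 min, 8.51% and 11.7% at 48 and 64 min, and 11.4% and 11.2% at 96 and 128 min. Over both media 78 of 128 such changes were called, all of them lower. GSY1 at 64 min in YPD was called although its arrays overlapped with those of 0 min.

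The 0 min arrays bear on all of these counts. Only 2 arrays stand behind 0 min in glucose, and leaving out one or the other with its replicate number changed the glucose counts: without glucose replicate 1 they were 1 at 32 min and 4 at 128 min of 6 genes with a value, and without glucose replicate 2 they were 0 and 3 of 8. One quantification day held a glucose array of 0 min and 1 array of every later time, and there 45 of 46 differences from 16 min on were below 0. All of them used the same array of 0 min, so they are not independent, and the share over all genes was not computed. In YPD no day held arrays both of 0 min and of 16 min or later, and with the day fitted as a fixed term 2 of 7 genes with a value were called lower at 128 min.

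**Figure D2:**
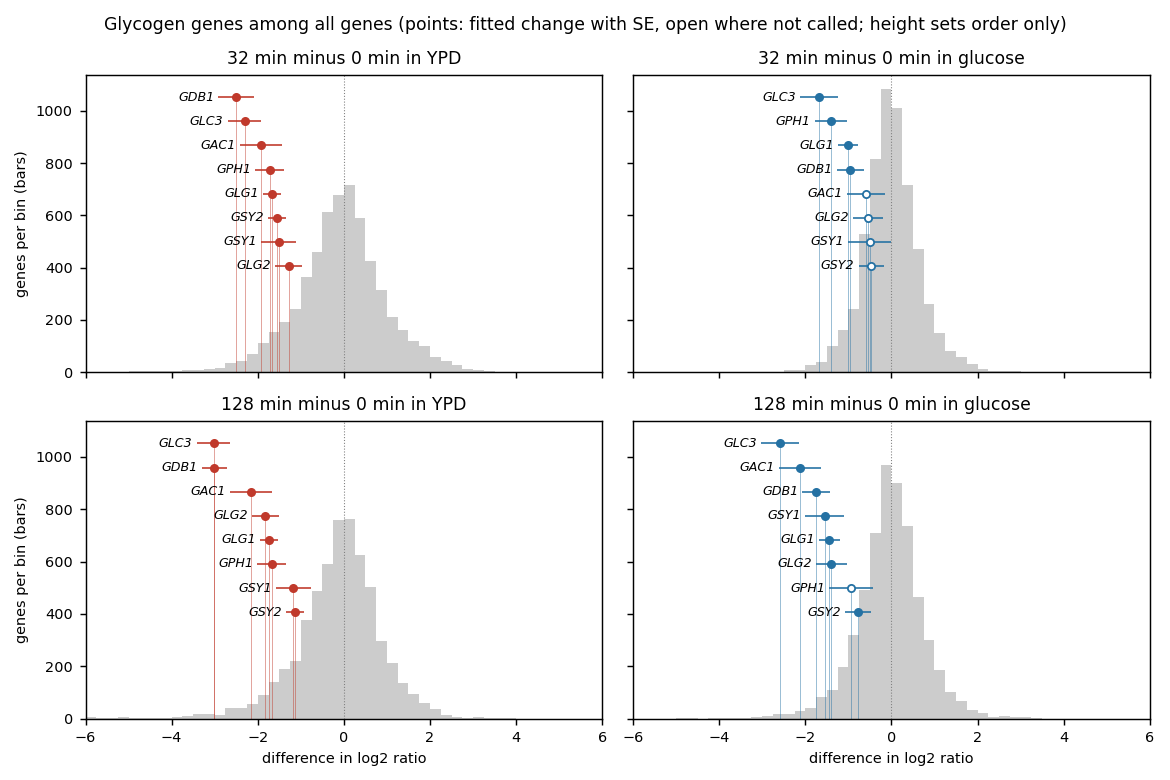
Change of each of the 8 genes from 0 min (points with SE, filled where the adjusted p was under 0.05) over the distribution of the changes of all 5828 genes (grey bars, genes per bin of the difference in log2 ratio), at 32 and 128 min, with YPD on the left and glucose on the right. All 8 points lie left of 0 in every panel, and GLC3 is the lowest of them in both glucose panels. The point of GDB1 at 32 min in YPD rests on 1 array not above background in Cy5.

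Of the pair of glycogenins, GLG1 was the first of the 8 genes to be called. Its log2 ratios at 8 min in YPD were -0.37, -0.72 and -0.63, against 0.19, 0.10 and 0.48 at 0 min, with no overlap, and the change was -0.83 ± 0.21 (SE; limma, adjusted p = 0.00397). The arrays of 0 and 8 min that shared a quantification day gave -0.86. At 32 min GLG1 was at -1.16, -1.46 and -1.62 in YPD, a change of -1.67 ± 0.21 (adjusted p = 1.53e-08), and at 96 min it reached its lowest mean, -1.80 ± 0.19 (SD, n = 3). Between these times it was higher again: at 48 min the arrays gave -0.28, -0.80 and -0.81, which was 0.78 above 32 min (adjusted p = 0.0438, 0.721% of all genes called higher in that step). That rise was the only one called among 112 steps between neighbouring times, and it lost its call in 12 of 17 alternative analyses, where its adjusted p reached 0.514.

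In glucose GLG1 was the only one of the 8 genes called at 16 min, with -0.67, -0.78 and -0.85 against 0.43 and 0.20 at 0 min, a change of -1.08 ± 0.24 (adjusted p = 0.00117). It changed little after that, and its means were -0.69 and -0.65 at 32 and 48 min and -1.13 at 128 min. At 128 min in YPD no spot of GLG1 was above background in Cy5 on any array, so only a bound holds there: its Cy5 level was at least 2.57-fold lower than at 0 min (adjusted p = 5.93e-09). Here and below such a bound sets the mean Cy5 level of 0 min against a limit taken on each array. That limit is the larger of the gene's own signal and the lowest signal of any spot that counted as above background. The limit for the gene's own spots can lie higher, so "at least" is approximate. A bound between media uses the other medium in place of 0 min. The bounds were not tested, and the adjusted p beside each is that of limma's test on the log2 ratio. Where few arrays of 0 min were above background, the level at 0 min is itself uncertain.

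GLG2, the second glycogenin, started at the highest ratio of the 8 genes in YPD, 0.50, 0.66 and 0.19 at 0 min. It was at -1.61, -0.82 and -1.23 at 16 min, a change of -1.68 ± 0.31 (adjusted p = 2.39e-05), and reached its lowest mean at 64 min, -1.96 ± 0.69 (SD, n = 3). At 128 min the YPD arrays gave -1.17, -1.24 and -1.70 and the change was -1.82 ± 0.31 (adjusted p = 7.58e-06). In glucose the 128 min arrays of GLG2 gave -1.90, -1.43 and -0.54, against 0.13 and 0.08 at 0 min (adjusted p = 0.00275). The third of these was the highest at 64, 96 and 128 min alike, with -0.38, -0.41 and -0.54. Those 3 arrays and 1 array of 0 min shared a quantification day and the second of the array layouts, and within that day the change at 128 min was -0.66, against -1.39 over all arrays. With the day as a fixed term the call was lost (adjusted p = 0.406). The same arrays also gave the highest ratios of GSY2, GLC3 and GAC1 in glucose at these times.

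Of the glycogen synthases, which extend the chains, GSY2 is the isoform that carries most of the activity in vegetative yeast. It was above background on all 53 arrays in both dyes, with a median signal 4.55 times background in Cy5 and 5.76 times in Cy3. GSY1 was above background in Cy5 on 25 of 53 arrays and its medians were 1.37 and 1.86. The genes are paralogs, and how far RNA of one binds the spots of the other was not tested.

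GSY2 in YPD was at -0.48, -0.72 and -0.68 at 4 min, below all its 0 min arrays but not called (change -0.49 ± 0.21, unadjusted p = 0.022, adjusted p = 0.109), and its 8 min change was -0.10 ± 0.21. Its largest step came next. Its ratios were -0.15, -0.09 and -0.45 at 8 min and -1.64, -1.79 and -1.44 at 16 min, a step of -1.39 ± 0.21 (adjusted p = 2.82e-06, 18.7% of all genes called lower in that step). From then on its YPD means stayed between -1.98 (48 min) and -1.26 (128 min), with SDs of 0.08 to 0.26. At 32 min its change from 0 min was -1.55 ± 0.21 (adjusted p = 6.59e-08), and its change at 128 min, -1.13 ± 0.21 (adjusted p = 2.18e-05), was the smallest of the 8.

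In glucose GSY2 stood at -0.53, -1.03 and -0.72 at 32 min and -1.42, -1.14 and -0.66 at 128 min, against -0.30 on the single 0 min array with a value. The change at 32 min was -0.47 ± 0.29, which was not called (adjusted p = 0.293), and the one at 128 min was -0.78 ± 0.29 (adjusted p = 0.046). That call was lost in 13 of 19 alternative analyses, with adjusted p between 7.81e-08 and 0.527. Within the quantification day of the 0 min array, the changes of GSY2 were -0.54, -0.19 and -0.37 at 64, 96 and 128 min. Each rests on 1 array of the second layout.

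GSY1 was not called at 16 min in YPD (change -0.56 ± 0.40, adjusted p = 0.259), and neither its step between 8 and 16 min (-0.21, adjusted p = 0.719) nor that between 16 and 32 min (-0.96, adjusted p = 0.0951) passed the test. In YPD its arrays gave -2.11, -2.14 and -1.61 at 32 min, against -0.36, -0.57 and -0.39 at 0 min, a change of -1.51 ± 0.40 (adjusted p = 0.00178) with no overlap. At 64 min the arrays ranged from -2.63 to -0.49, and the highest of them overlapped with 0 min. No YPD array showed GSY1 above background in Cy5 at 48, 96 or 128 min, and at 0 min 1 of 3 arrays did. The bound against 0 min was at least 2.44-fold lower for the 48 min arrays, which were not called (adjusted p = 0.0553). It was at least 1.84-fold lower for the 96 min arrays (adjusted p = 0.00155) and at least 1.73-fold lower for those of 128 min (adjusted p = 0.0158). The glucose arrays of 128 min were also below that limit, which gives at least 2.70-fold lower than at 0 min (adjusted p = 0.00907).

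GLC3, the branching enzyme, had one of the largest falls of the list and was above background on all 53 arrays in both dyes. In YPD the arrays of 16 min gave -2.70, -1.56 and -2.66, against -0.30, 0.00 and -0.24 at 8 min, a step of -2.13 ± 0.39 (adjusted p = 6.36e-05). Its lowest YPD mean was -3.15 ± 0.36 (SD, n = 3) at 64 min, where the arrays gave -3.15, -3.52 and -2.79. The change from 0 min was then -3.52 ± 0.39 (adjusted p = 6.01e-10), an 11.5-fold lower level and the 52nd lowest change of 5828 genes.

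In glucose GLC3 took a slower course, with means of 0.20, 0.26 and 0.06 at 0, 4 and 8 min, of -0.63, -1.48 and -2.01 at 16, 32 and 48 min, and of -2.38, -2.67 and -2.38 at 64, 96 and 128 min. The arrays of 32 min gave -1.22, -1.46 and -1.75, all below the 0.09 and 0.32 of 0 min (change -1.68 ± 0.44, adjusted p = 0.00573). At 64 min the change of GLC3 in glucose, -2.59 ± 0.44 (adjusted p = 2.24e-05), was the 15th lowest of 5828 genes. At 128 min the third array gave -1.25, against -2.76 and -3.13 on the others. That array was of the second layout and shared its quantification day with 1 array of 0 min. Within that day the change was -1.33, against -2.58 over all arrays.

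The breakdown genes fell with the synthesis genes. GPH1, glycogen phosphorylase, was already at -1.20 and -1.35 on the 2 YPD arrays of 8 min with a value, against -0.26, -0.30 and -0.81 at 0 min, which did not pass the test (change -0.82 ± 0.38, adjusted p = 0.138). At 16 min in YPD GPH1 was not above background in Cy5 on any of the 3 arrays, so its level was at least 2.08-fold lower than at 0 min (adjusted p = 0.000186). At 32 min it was above background on all 3, with -1.91, -2.41 and -2.22 and a change of -1.72 ± 0.34 (adjusted p = 5.78e-05). In glucose GPH1 reached its lowest mean at 32 min, earlier than the other 7 genes, with -1.77, -1.99 and -1.80 against -0.16 and -0.75 at 0 min (change -1.40 ± 0.38, adjusted p = 0.00846).

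GDB1, the debranching enzyme, had 1 usable array at 32 min in YPD, at -2.59, and its Cy5 spots were not above background. Its level there was at least 1.56-fold lower than at 0 min (adjusted p = 5.4e-06), a bound set by that array and by a 0 min level above background on 1 of 3 arrays. The 64 min arrays with a value gave -2.82 and -3.06, against 0.10, -0.32 and -0.05 at 0 min, a change of -2.85 ± 0.32 (adjusted p = 5.74e-09). Between these times the 48 min arrays of GDB1 gave -1.20 and -1.33. The 96 and 128 min arrays in YPD ranged from -3.49 to -2.08 with no spot above background in Cy5, which gives at least 1.51-fold lower for the 96 min arrays (adjusted p = 6.71e-09) and at least 1.47-fold lower for those of 128 min (adjusted p = 2.17e-10). In glucose the 48 min arrays gave -1.81 and -1.90, against -0.36 and -0.30 at 0 min (change -1.52 ± 0.36, adjusted p = 0.00264), and at 128 min the level was at least 2.26-fold lower (adjusted p = 0.000124).

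GAC1 encodes the subunit that directs the protein phosphatase Glc7 to glycogen synthase and so keeps synthase active. It was not lower than at 0 min until after 16 min, and in YPD it then reached the lowest ratio of the 8 genes. At 8 min its arrays gave 1.13, 0.36 and -0.48 in YPD and 0.94, 0.98 and -0.28 in glucose, the highest group means of this gene in either medium, with no call against 0 min (adjusted p = 0.221 and 0.466). At 16 min it was the only one of the 8 genes whose change was above 0 in both media, 0.15 ± 0.44 in YPD (adjusted p = 0.809) and 0.49 ± 0.44 in glucose (adjusted p = 0.488).

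Between 16 and 32 min in YPD GAC1 dropped by 2.07 (SE 0.44; adjusted p = 0.00125, 9.73% of all genes called lower in that step), and 2 of the 3 arrays of 32 min had a value, -2.24 and -2.57. The arrays of 64 min gave -3.74, -3.61 and -3.75 and those of 96 min -4.19, -4.23 and -4.19, a spread of 0.08 and 0.02 (SD). Against the -0.53 and -0.42 of 0 min, the 64 min arrays of GAC1 had changed by -3.23 ± 0.44 on the log2 scale, with an adjusted p of 1.56e-07, and its 96 min arrays gave -3.73 ± 0.44 (adjusted p = 1.04e-08). Cy5 was above background on 2 of 3 of these arrays at 64 min, on 1 of 3 at 96 min and on 0 at 128 min, where GAC1 was at least 4.35-fold lower than at 0 min (adjusted p = 0.000394), so the depth of its fall in YPD is limited by the background.

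In glucose GAC1 was above background in both dyes on every array and fell more gradually. The 32 min arrays gave 0.47, -1.91 and -0.92, the widest spread of any group of this gene (SD 1.19), and overlapped with 0.03 and -0.40 at 0 min (adjusted p = 0.378). The 64, 96 and 128 min means were -1.57, -1.96 and -2.31, and the change at 128 min was -2.13 ± 0.48 (adjusted p = 0.00113), with arrays at -2.95 and -1.68.

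The media were compared at the same time, to ask whether the other components of YPD changed the response to glucose. No quantification day held arrays of both media at 4, 16, 32, 48 or 64 min. At those times a difference between media cannot be told apart from one between days. All 11 arrays of the second layout were glucose arrays. At 0 min the 8 genes stood at similar ratios in both media, and no gene of the list was called lower in YPD than in glucose (0% of all genes; none at an unadjusted p under 0.05). At 4 and 8 min 0 genes were called (1.92% and 0.944% of all genes), with 1 below an unadjusted p of 0.05 at each. Lower in YPD were 2 of 8 at 16 min (10.9% of all genes), 4 of 8 at 32 min (13.8%), 1 of 8 at 48 min (8.05%), 2 of 8 at 64 min (13.6%), 3 of 8 at 96 min (10.3%) and 1 of 8 at 128 min (6.57%), and 0 were called higher in YPD at any time, also at the unadjusted threshold. The share of all genes higher in YPD was 0.0343%, 6.54% and 2.2% at 0, 4 and 8 min, 8.8%, 9.47% and 1.65% at 16, 32 and 48 min, and 6.49%, 5.99% and 3.04% at 64, 96 and 128 min. In all, 13 of 72 differences were called, for 5 of the 8 genes. With the quantification day as a random term the 4 calls at 32 min became 1, and without glucose replicate 1 there were 0 at that time, with 6 genes that had a value.

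**Figure D3:**
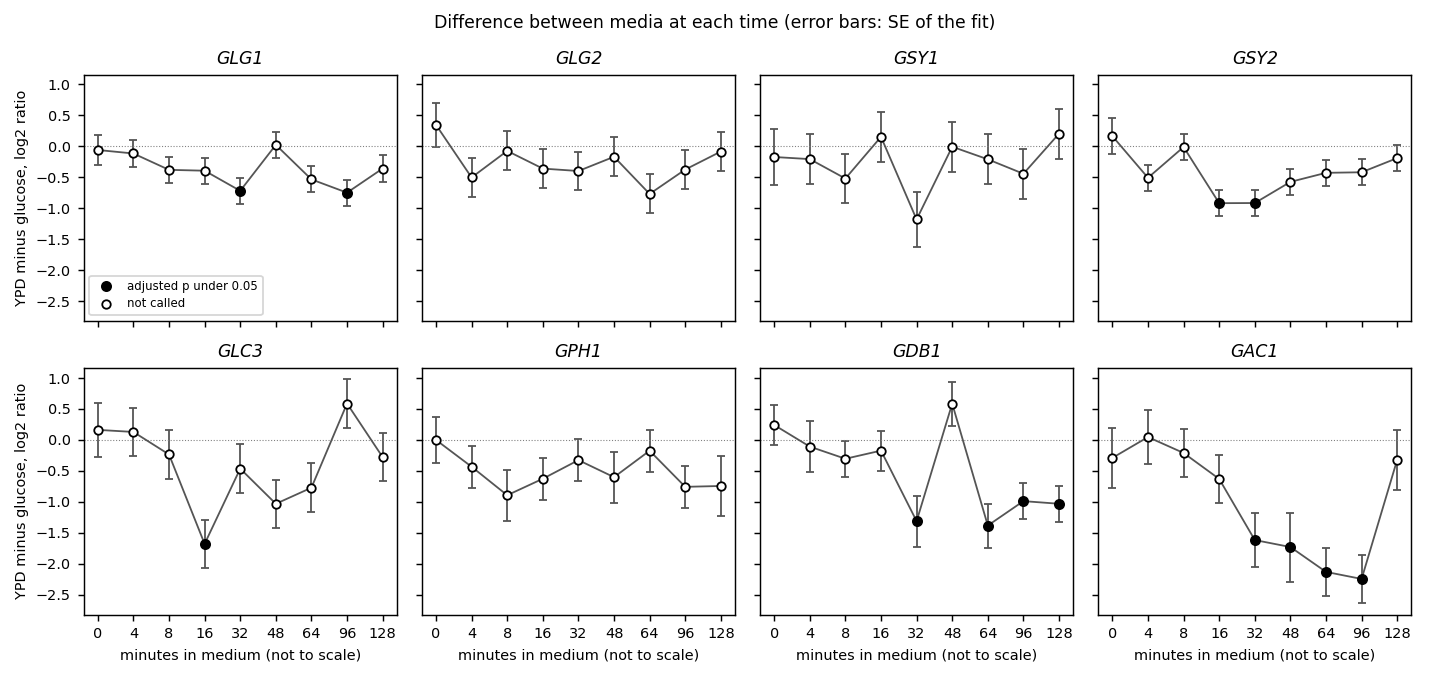
Difference in log2 ratio, YPD minus glucose, for each gene (points with the SE of the fit) against minutes in the medium, filled where the adjusted p was under 0.05. GAC1 shows the widest separation, with -1.62, -1.73, -2.13 and -2.24 at 32, 48, 64 and 96 min and -0.32 at 128 min. The value at 48 min rests on 1 YPD array, and at 128 min no YPD array was above background in Cy5.

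GAC1 separated the media most. It stood at -3.74, -3.61 and -3.75 in YPD against -2.03, -1.39 and -1.30 in glucose at 64 min (difference -2.13 ± 0.39, adjusted p = 0.000118) and at -4.19, -4.23 and -4.19 in YPD against -2.01, -2.19 and -1.68 in glucose at 96 min (difference -2.24 ± 0.39, adjusted p = 7.87e-05). No YPD array of either time overlapped with a glucose array. At 96 min 3 YPD and 2 glucose arrays shared a quantification day, and within it the difference was -2.11. Both calls held in 17 of 18 alternative analyses and were lost without background subtraction, where the differences were -0.86 and -0.77 (adjusted p = 0.0587 and 0.121). At 48 min, where GAC1 was the 1 gene called, the call rests on 1 YPD array at -3.08 (difference -1.73 ± 0.56, adjusted p = 0.041) and was lost in 7 of 16 alternative analyses. At 128 min the difference of GAC1 was -0.32 ± 0.48 (adjusted p = 0.782), with no YPD array above background in Cy5, and within the day it was 0.32. The bound there was at least 2.76-fold lower in YPD than in glucose, with 2 arrays in each medium. A narrowing of the gap after 96 min was therefore not shown.

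GDB1 was lower in YPD than in glucose from 64 min on. At 64 min it was at -2.82 and -3.06 in YPD against -1.89 and -1.23 in glucose (difference -1.38 ± 0.36, adjusted p = 0.00496). At 96 min no YPD array showed it above background, which gives at least 1.26-fold lower in YPD than in glucose (adjusted p = 0.0161), with a within-day difference of -1.03. At 128 min neither medium did, so no fold is given, the arrays of the media overlapped and the call (adjusted p = 0.0181) was lost in 8 of 17 alternative analyses. Its call at 32 min (adjusted p = 0.0193) rests on 1 YPD array not above background, which gives at least 1.14-fold lower in YPD than in glucose. At 48 min GDB1 was higher in YPD without a call, at -1.20 and -1.33 against -1.81 and -1.90 in glucose.

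GLC3 and GSY2 separated the media early. At 16 min GLC3 was at -2.70, -1.56 and -2.66 in YPD, all below the -0.21, -0.51 and -1.16 in glucose (difference -1.68 ± 0.39, adjusted p = 0.0018), and at the later times it did not pass the test. With the day as a random term the adjusted p of GLC3 at 16 min was 0.0527. GSY2 at 16 min was at -1.64, -1.79 and -1.44 in YPD against -0.66, -0.48 and -0.98 in glucose (difference -0.92 ± 0.21, adjusted p = 0.00136). At 32 min it was at -1.54, -1.78 and -1.70 in YPD against -0.53, -1.03 and -0.72 in glucose (difference -0.91 ± 0.21, adjusted p = 0.00124).

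GLG1 was lower in YPD at 32 min, with -1.16, -1.46 and -1.62 in YPD against -0.59, -0.82 and -0.67 in glucose (difference -0.72 ± 0.21, adjusted p = 0.0113). The difference was -0.75 ± 0.21 at 96 min (adjusted p = 0.0105) and was not called at 48 min, where its YPD level was highest after 8 min. GLG2, GSY1 and GPH1 were not called at any of the 9 times. The closest were GSY1 at 32 min (-1.18 ± 0.45, adjusted p = 0.0511) and GLG2 at 64 min (-0.77 ± 0.31, adjusted p = 0.0825). Whether the change from 0 min itself differed between the media was tested for each gene and time, and 1 of 64 such differences was called, GDB1 at 64 min (4.51% of all genes called lower), so for the other genes a different size of change was not shown.

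The order of the 18 groups was alike for the 8 genes at its ends. The lowest group mean of each gene was in YPD, at 48 min for GSY2, at 64 min for GLG2 and GLC3, at 96 min for GLG1, GSY1, GPH1 and GAC1, and at 128 min for GDB1, where none of its Cy5 spots was above background. The highest lay at 0, 4 or 8 min. Neighbours in the order mostly did not differ by more than their spread, since of 17 neighbouring pairs only 1 to 3 per gene were further apart than the larger of their SDs. Over the 18 group means the 28 pairs of genes had Pearson r of 0.71 (GPH1 with GAC1) to 0.93 (GLG1 with GDB1), with a median of 0.84, as a description of group means that share the dormant-spore RNA and their array batches. By the filter of a mean ratio of -1 or below at 2 consecutive times, all 8 genes passed in YPD (16.5% of all genes) and all 8 in glucose (8.84%), and 0 passed the corresponding filter for higher genes.

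The genes whose group means ran most like each member were sought among all 5828 genes over the 18 groups. GLC3 was matched most closely, by YAT2 at r = 0.99, a carnitine acetyltransferase, followed by ATG34 (0.97) and FUN19 (0.97). GAC1 ran with HSP104 (0.97), the protein disaggregase, then YFT2 (0.96) and SAS4 (0.96), and GSY2 with TGL1 (0.98), a steryl ester hydrolase, then NNK1 (0.97) and SMC6 (0.97). The other nearest genes were ATO2, RGI1 and PRO1 for GLG1 (each 0.97), THI13, SFC1 and XRS2 for GLG2 (0.97, 0.96 and 0.95), and YMR090W, ACH1 and MBR1 for GSY1 (each 0.96). GPH1 was nearest to YFL067W (0.96), SLH1 (0.95) and YFL057C (0.95), and GDB1 to FMP40, SDH9 and ATG39 (each 0.95). No gene of the list was among the 3 nearest of another.

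Of 17 other genes that supply UDP-glucose or control glycogen, all with a value, 9 were called lower and 2 higher at 32 min in YPD, and 13 lower and 2 higher at 128 min. In glucose the counts were 4 lower and 0 higher at 32 min and 9 lower and 0 higher at 128 min. Of all genes 26.6% were called lower and 22.2% higher at 32 min in YPD, and 25.7% and 18.4% at 128 min. The shares in glucose were 9.06% and 8.05% at 32 min, and 14.2% and 11.2% at 128 min. The median change of these genes was -0.78 at 32 min and -1.39 at 128 min in YPD, and -0.41 and -0.86 at those times in glucose. The list shares no gene with the 8 above.

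**Figure D4:**
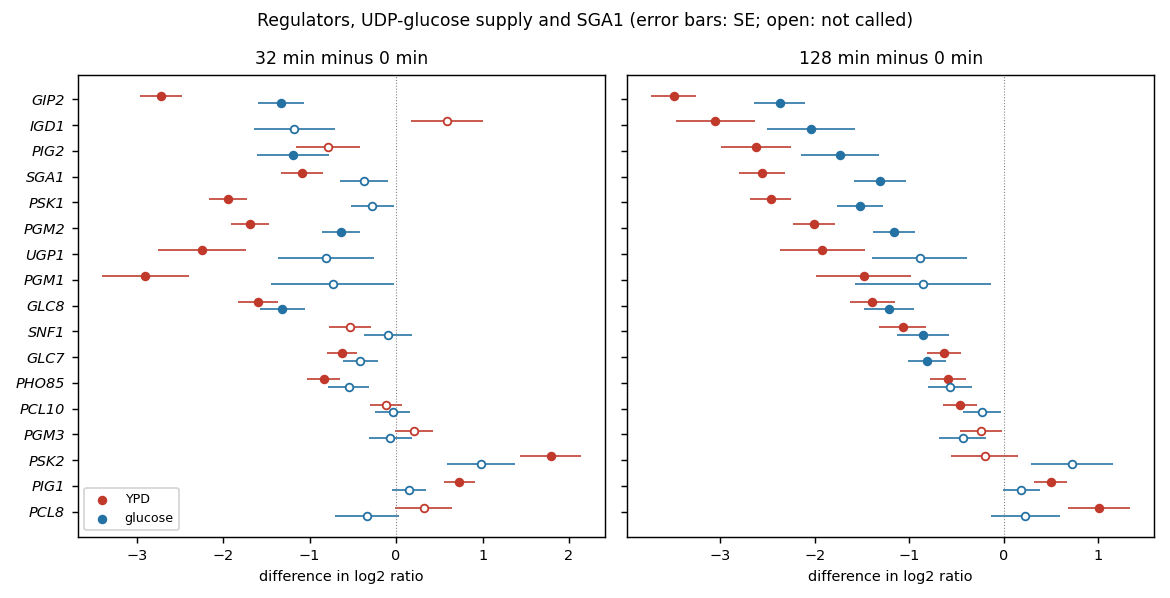
Change in log2 ratio from 0 min (points with the SE of the fit, filled where the adjusted p was under 0.05) of 17 genes of UDP-glucose supply and glycogen control at 32 min and 128 min, with YPD in red and glucose in blue. GIP2 lies lowest at 128 min in both media, at -3.49 in YPD and -2.37 in glucose.

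Of the 4 genes that lead to UDP-glucose, 3 were called lower at 32 and 128 min in YPD, and PGM3 was not (0.21 at 32 min, adjusted p = 0.467; -0.24 at 128 min, adjusted p = 0.397). PGM1, a phosphoglucomutase, had the largest fall of the 17 at 32 min (-2.90 ± 0.51, adjusted p = 9.26e-06), PGM2, the major phosphoglucomutase, changed by -1.69 (adjusted p = 5.08e-08) and UGP1, which makes UDP-glucose, by -2.24 (adjusted p = 0.000327). In glucose PGM2 was called lower at both times, with changes of -0.64 (adjusted p = 0.0392) at 32 min and -1.16 (adjusted p = 0.000121) at 128 min, and PGM1, PGM3 and UGP1 were called at neither time. GIP2, a candidate glycogen-targeting subunit of Glc7 akin to GAC1, had the largest fall at 32 min in glucose (-1.33 ± 0.27, adjusted p = 0.000504), at 128 min in YPD (-3.49 ± 0.24, adjusted p = 2.47e-15) and in glucose (-2.37 ± 0.27, adjusted p = 1.39e-08).

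Among the kinases that phosphorylate or control synthase, the paralogs PSK1 and PSK2 went opposite ways at 32 min in YPD. PSK1 fell by 1.94 (adjusted p = 1.71e-09) and PSK2 rose by 1.79 (adjusted p = 5.84e-05). PSK2 had the highest change of the 17 in glucose too, without a call: 0.99 (adjusted p = 0.0788) for 32 min, then 0.72 (adjusted p = 0.229) for 128 min. At 32 min PSK1 was lower in YPD than in glucose (difference -1.78 ± 0.22, adjusted p = 9.92e-08). IGD1, an inhibitor of the debranching enzyme, was higher in YPD at 32 min (adjusted p = 0.00771), with changes from 0 min that were not called in either medium, 0.59 in YPD (adjusted p = 0.247) and -1.18 in glucose (adjusted p = 0.0757), and lower in YPD at 128 min (difference -1.28 ± 0.42, adjusted p = 0.0435). SGA1, the sporulation-specific glucoamylase that also degrades glycogen, changed at 128 min by -2.56 in YPD (adjusted p = 1.53e-11) and by -1.31 in glucose (adjusted p = 0.000343). PCL8, a cyclin of the kinase Pho85 that acts on synthase, rose at 128 min in YPD by 1.01 ± 0.33 (adjusted p = 0.0116), but measured against dormant spores rather than 0 min it was at -0.03.

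Trehalose is the other storage carbohydrate. Of its 7 genes, all with a value, 6 were called lower than at 0 min at 32 min in YPD (26.6% of all genes). In glucose 1 was (9.06%). At 128 min 5 were called lower in YPD (25.7%) and 2 in glucose (14.2%). The count higher was 0 in each, against 22.2% of all genes in YPD and 8.05% in glucose at 32 min. At 128 min those shares were 18.4% and 11.2%. The gene called in glucose at 32 min was TSL1, a subunit of the synthase complex (-1.13 ± 0.39, adjusted p = 0.0374), where the highest change was that of TPS1, 0.51 (adjusted p = 0.214). The highest changes in YPD were -0.23 for the trehalase NTH2 at 32 min (adjusted p = 0.395) and 0.17 for ATH1 at 128 min (adjusted p = 0.595), and in glucose at 128 min ATH1 was at 0.26 (adjusted p = 0.563). Between the media 4 of 7 were lower in YPD at 32 min (13.8% of all genes) and 1 of 7 at 128 min (6.57%). TPS2, which makes trehalose from its phosphate, changed by -3.37 ± 0.38 at 32 min in YPD (adjusted p = 1.75e-09) and by -0.20 in glucose (adjusted p = 0.778), and was lower in YPD than in glucose (difference -3.11 ± 0.38, adjusted p = 8.63e-08). At 128 min its change was -2.66 in YPD (adjusted p = 2.86e-08) and -1.84 in glucose (adjusted p = 0.000338), and the media were not called different (adjusted p = 0.167). Of the glycogen genes, GAC1 was called lower in YPD from 32 to 96 min, with 1 YPD array at 48 min, and GLC3 at 16 min only.

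Markers of the cells were read on the same arrays. Of 12 spore and sporulation genes, all with a value, 3 were above background in dormant spores on at least 50% of the arrays, and their median ratio lay between -0.32 and 0.30 over the 18 groups. At 32 min in YPD 4 of the 12 were called lower than at 0 min and 2 higher, and 4 lower and 1 higher at 128 min. SPS100, a spore wall gene, had the largest fall (-4.51 at 32 min and -6.64 at 128 min on the log2 scale), and the largest rises were those of SPR28 at 32 min (0.98, adjusted p = 0.0383) and of OSW2 by 128 min (0.91, adjusted p = 0.000932). Of 9 genes of cycling cells with a value, 8 were above background in dormant spores, and their median ratio lay between -0.49 and 0.25. In YPD 3 were called lower and 1 higher at 32 min, and 4 lower and 1 higher at 128 min. For both marker lists the shares of all genes in YPD were 26.6% lower and 22.2% higher at 32 min. At 128 min they were 25.7% and 18.4%. The part of vegetative cells or ungerminated spores in the values of the 8 glycogen genes was not tested. The median spot of an array was 1.53 to 2.51 times its background in Cy3 and 1.74 to 3.49 times in Cy5 in YPD, and 1.39 to 2.51 and 1.66 to 3.77 times in glucose, and 400 of the 424 possible values of the 8 genes were usable.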

How the data were processed

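The file headers name ImaGene 6.0.1 as the quantification software, while the study's methods name GenePix Pro; the files were read as ImaGene output. The authors deposited spot intensity values for each dye of 53 arrays (13056 spots) without background subtraction or normalization. The authors also deposited a table with 1 log ratio per gene and group after loess, read here as log2 and used as an alternative. Mean intensities were corrected with normexp (offset 50, limma 3.58.1, R 4.3.3), spots flagged by the scanner software were left out, log2 Cy5/Cy3 was normalized by global loess, and the spots of a gene were averaged. The arrays come in 2 layouts, and each was read with its own identifiers. All 18 groups were fitted together with lmFit and eBayes, with Benjamini-Hochberg adjustment over 5828 genes in each contrast (threshold 0.05), and the fit was tested on simulated data. A spot was above background when its signal exceeded the background by 2 SD. The number of arrays limits the precision.

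The 8 genes, the 17 regulators, the 7 trehalose genes and the marker lists were chosen with earlier results of these data known. Named genes were the 8 members, the 3 nearest to each, and the largest rise and fall of the regulator and trehalose lists at 32 and 128 min in each medium. PGM2, PGM3, UGP1, PSK1, IGD1, SGA1 and the spore genes were named beyond that rule after their values were seen. Alternatives covered background, normalization, spot measure, flags, dim spots, layout, quantification day, replicate blocks, replicates left out and the baseline. Same-numbered arrays deviated together in some pairs only (r -0.34 to 0.48 in YPD, mean 0.04; -0.27 to 0.71 in glucose, mean 0.13; different numbers had means of -0.02 and -0.06), and 22 of 48 image folders name another replicate number than the file, so numbers were not used to pair arrays.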

Additional observations from a re-analysis of the deposited data

Results flagged for a closer look

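GDB1 was marked because its change from 0 min differed between the media by the test of that difference. The change from 0 to 64 min, YPD minus glucose, was -1.62 ± 0.48 on the log2 scale (limma, Benjamini-Hochberg adjusted p = 0.0401), where the change was -2.85 in YPD and -1.23 in glucose. Each 64 min group had 2 arrays with a value, at -2.82 and -3.06 in YPD and at -1.89 and -1.23 in glucose. The call was lost in 11 of 17 alternative analyses, over which the difference lay between -2.07 and -0.94 and the adjusted p between 0.0254 and 0.181. Spots of GDB1 were above background in Cy5 on 29 of 53 arrays, and what part this plays was not tested.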

How the results depend on the processing

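No change or difference between media that was called for the 8 glycogen genes changed its sign under any alternative. With the quantification day as a fixed term, the count of members called lower was 2 at 128 min in YPD, 2 at 32 min and 1 at 128 min in glucose, each of 7 with a value, and 0 at 128 min between the media. At 32 min in glucose it was also 2 with only the groups compared in the fit, with the spot median, and with spots above background in neither dye left out. For YPD against glucose at 32 min it was 1 without background subtraction and 1 with the day as a random term. For YPD against glucose at 128 min it was 2 when flagged spots were kept, and 0 with only the groups compared, with print-tip loess, with the spot median or with dim spots left out. Leaving out 1 replicate number of 1 medium gave 6 to 8 lower at 32 min and 6 to 8 at 128 min in YPD, 0 to 4 and 3 to 7 in glucose, and 0 to 5 and 0 to 1 between the media, partly because genes lost their only value, and the count higher was 0 to 0 in each. Of the called results that could be fitted, 36 of 68 lost their call with the day as a fixed term, 20 of 91 without glucose replicate 2, 19 of 70 without glucose replicate 1, 16 of 91 without background subtraction and 15 of 91 with the spot median, and 0 to 9 under each other alternative with a test. With the replicate number as a block, 90 of 91 called results kept their call, and GSY2 at 128 min in glucose lost it. Against dormant spores in place of 0 min, PCL8 at 128 min in YPD was at -0.032 and ATH1 at -0.40, below 0 where they had been above it. In the authors' table all 91 called results had the same sign, and 63 differed by more than 1 SD. Its group medians lay between -0.01 and 0.01, so it is centred, and its log base and exact averaging were not given in the sources used here. The cause of each loss was not tested. Low signal limits GSY1, GPH1 and GDB1 most, whose median Cy5 signal was 1.37, 1.58 and 1.45 times background.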
